A study of Mus musculus with 9 samples.

Results

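The nuclear-encoded genes of the respiratory chain were described across 3 sorted cell groups of the mouse fetal liver, at embryonic day 14.5 on the C57BL/6 strain, each with 3 libraries of 100 cells. Members were all genes whose symbols begin with Ndufa, Ndufb, Ndufc, Ndufs or Ndufv and a digit, with Cox4 to Cox8, with Uqcr or with Atp5, and Sdha, Sdhb, Sdhc and Sdhd. A gene also had to reach 1 TPM (a share of all transcripts, corrected for gene length) in at least 3 of the 9 libraries, so the members were chosen by their measured TPM as well as by name. The patterns matched 102 of the 55488 genes in the tables. Of these, 13 carried -ps in their symbol and were left out, 6 stayed under the level, and 83 were kept. The 83 members stood for 82 symbols, because Atp5o is listed under 2 gene identifiers. They comprised 38 members named for complex I, 4 of complex II, 8 of complex III, 15 of complex IV and 18 of complex V.

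The Evi1 HSC group was sorted with a gate for haematopoietic stem cells (HSCs; CD150+CD48- within the c-Kit+Sca-1+Lin- fraction) and for GFP, from Tie2-Cre::ROSA-Evi1 embryos. Tie2-Cre is a recombinase under a promoter used by endothelium and blood. Evi1, a transcription factor, is a product of the Mecom gene. For WT HSC the gate was the same but without GFP, and for WT KL it was c-Kit+Sca-1-Lin-, a gate of committed progenitors. Both WT groups came from ROSA-Evi1 embryos, so every group carried the ROSA-Evi1 allele and the 2 WT groups lacked the Cre. GFP was a sorting criterion in the Evi1 HSC group alone. No label says that replicates came from separate embryos, so the p-values cover only how far these samples spread, which may be technical.

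The respiratory chain sits in the inner mitochondrial membrane. Complexes I (NADH dehydrogenase) and II (succinate dehydrogenase) pass electrons to coenzyme Q, complex III passes them to cytochrome c and complex IV (cytochrome c oxidase) to oxygen, while complex V uses the resulting proton gradient to make ATP. Complex II is encoded by nuclear genes alone, and the other complexes also hold subunits encoded in mitochondrial DNA. Quiescent adult HSCs are known for relying more on glycolysis than their committed progeny do, whereas fetal liver HSCs divide actively.

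The gates were checked first. Mecom lay between 114 and 210 TPM in 5 of the 6 libraries labelled HSC but read 0.0167 TPM in the one labelled WT HSC replicate 3. It lay at 0.0107 and 0.325 TPM in WT KL replicates 2 and 3 whereas the one labelled WT KL replicate 1 read 90.8 TPM. Ly6a, which encodes Sca-1, split the libraries the same way, with 13.2 to 58.6 TPM against 0 to 0.0354 TPM, and the one labelled WT KL replicate 1 read 19.7 TPM. These 2 libraries therefore went against their labels in the gene of a sorted marker and in Mecom, which was not sorted on. Counts of members are given over the 9 libraries as labelled and over the 7 others, differences of single genes are over the 7 unless stated, and neither library was moved to another group. Leaving them out fixes the direction of Mecom and Ly6a, which belong to a list of 10 stem cell markers. The other 8 markers were also higher in both HSC groups than in WT KL over 7 libraries by limma. Of all genes tested, 26.7% were called higher in WT HSC and 31.3% in Evi1 HSC. However, Esam, Tek, Slamf1, Procr and Mycn stayed under 1 TPM in WT KL replicates 2 and 3 and in WT HSC replicate 3. They passed the filter only through the libraries where they are high, so a difference was built into their calls. Over the 9 libraries limma called 0 of the 10, with 0 for WT HSC and 2 for Evi1 HSC at an unadjusted p under 0.05.

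The members followed that split. On the log2(TPM + 1) scale, the library labelled WT HSC replicate 3 lay nearer to the mean of WT KL replicates 2 and 3 than to that of WT HSC replicates 1 and 2 in 73 of 83 members. The library labelled WT KL replicate 1 lay nearer to WT HSC replicates 1 and 2 in 72 of 83. Summed over the 83 members, expression was 5167, 5551 and 5160 TPM in Evi1 HSC replicates 1 to 3. It was 5852 and 5356 TPM in replicates 1 and 2 of WT HSC while the one labelled WT HSC replicate 3 held 8923 TPM. WT KL replicates 2 and 3 held 9303 and 8465 TPM, and the one labelled WT KL replicate 1 had 5536 TPM. The 3 high libraries did not overlap with the 6 low ones. As a share of all listed TPM, the members took 0.847 to 0.979% in the low libraries and 1.46 to 1.47% in the high ones. The listed genes made up 56.9 to 63.8% of the full TPM scale, with 63.8 and 58.0% in WT KL replicates 2 and 3, so summed TPM rest on unequal totals. In bulk samples of this kind, fewer cells of a type and less RNA per cell cannot be told apart.

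**Figure D1:**
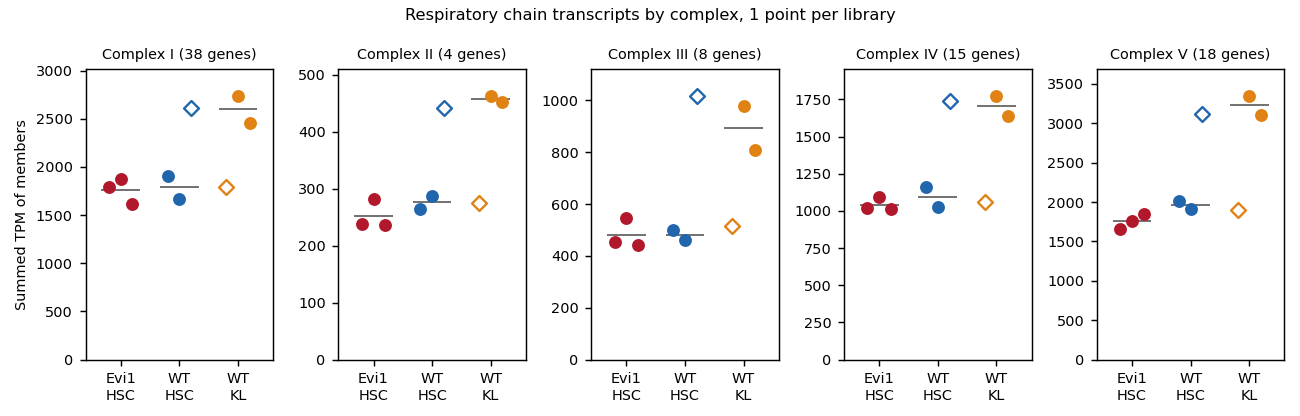
Summed TPM (y axis, from 0) of the members of each complex in the 3 groups (x axis). Each point is 1 library, open diamonds are the libraries labelled WT HSC replicate 3 and WT KL replicate 1, and bars are means of the filled points. In every complex the 5 filled HSC points lie below both filled WT KL points, and each open diamond lies among the filled points of the other gate or next to them.

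By complex, and without the 2 libraries, the WT HSC mean was 0.689 of the WT KL mean for complex I, 0.603 for complex II, 0.539 for complex III, 0.641 for complex IV and 0.608 for complex V. The Evi1 HSC mean was 0.678, 0.550, 0.539, 0.611 and 0.544 of the WT KL mean for complexes I to V. Over these 7 libraries Evi1 HSC and WT HSC were close, at 0.984, 0.913, 1.001, 0.953 and 0.894 of the WT HSC mean. Over the 9 libraries as labelled, the ratios of WT HSC to WT KL were 0.835 to 0.885. Those of Evi1 HSC to WT KL were 0.627 to 0.756, and those of Evi1 HSC to WT HSC 0.729 to 0.854. The HSC groups were thus close only with WT HSC replicate 3 set aside. The sums follow the symbols, so that of complex I includes Ndufa4, which is now assigned to complex IV. They are descriptions and were not tested.

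**Figure D2:**
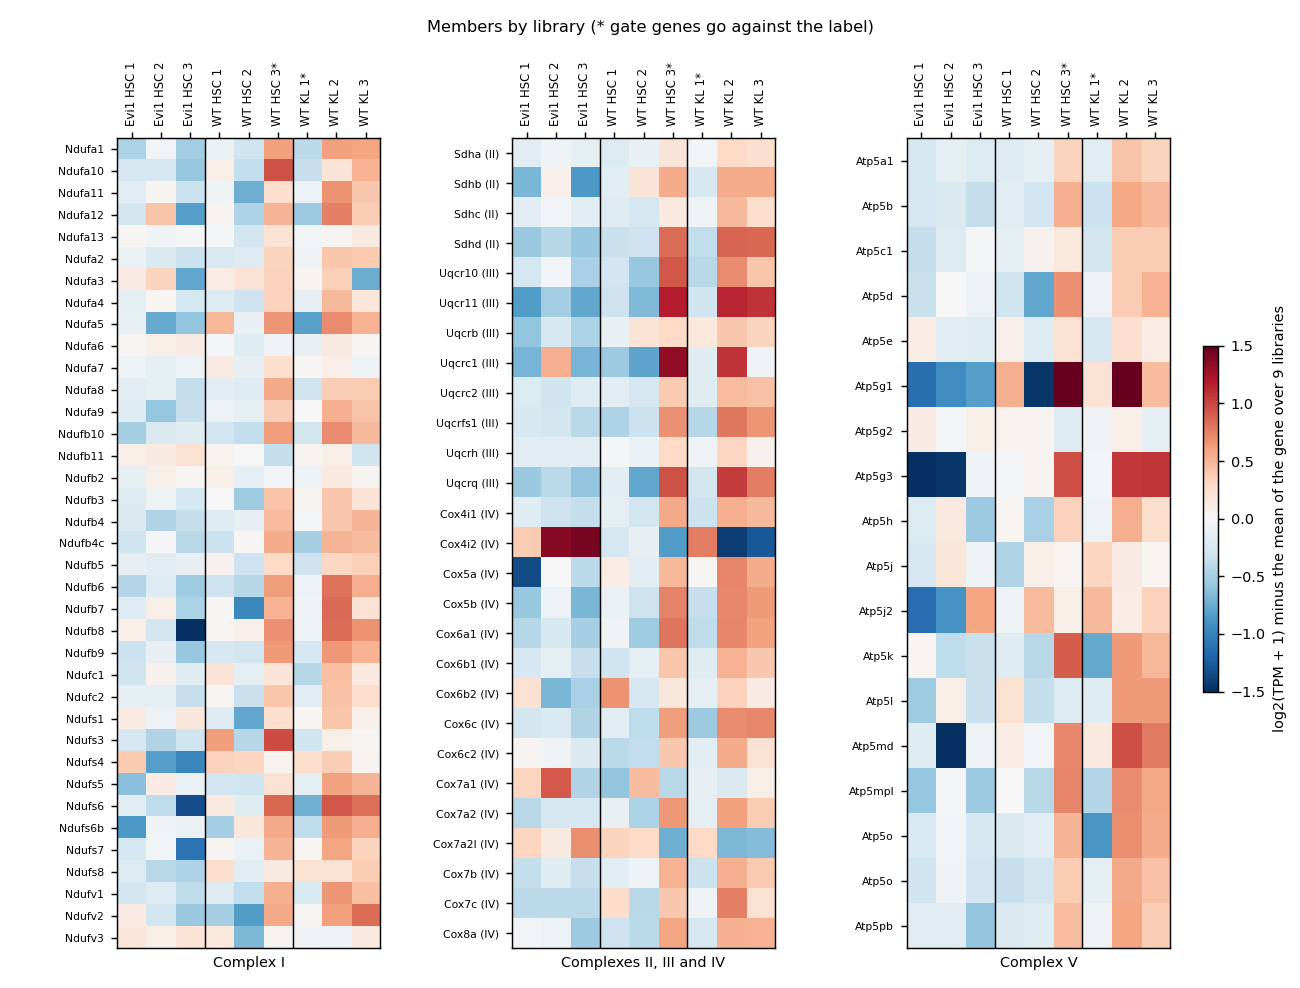
Each row is 1 member (1 member of complex I is not shown) and each column 1 library, and colour is log2(TPM + 1) minus the mean of that gene over the 9 libraries. Complexes I, II to IV and V are in separate panels, and asterisks mark the 2 libraries whose gate genes go against the label. Most rows are red in WT KL replicates 2 and 3 and in the column labelled WT HSC replicate 3, while Cox4i2 and Cox7a2l show the opposite colours.

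The question of the 2 gate comparisons was how the chain differed between stem cell and progenitor gates. Over 7 libraries, 44 of 83 members were called by limma at an adjusted p under 0.05 in WT HSC against WT KL, of which 42 were lower and 2 higher in WT HSC. Among all 19461 genes tested, 37.5% were called in that comparison, 10.8% lower and 26.7% higher. The median log2 difference of the members was -0.65, beside 0.26 for all genes tested. In Evi1 HSC against WT KL, 58 members were called, 56 lower and 2 higher, beside 45.5% of all genes, 14.3% lower and 31.3% higher. The members' median was -0.74 and that of all genes 0.28. In 65 members both WT HSC libraries lay below both WT KL libraries, beside 25.2% of all genes, and in 67 all 3 Evi1 HSC libraries did, beside 22.9%. The comparisons share WT KL replicates 2 and 3, and 43 members were called in both, 97.7% of the first list and 74.1% of the second. The same 2 genes, Cox4i2 and Cox7a2l, were the ones called higher in each, but Cox4i2 reached 1 TPM in none of the 2 WT KL libraries compared, so its membership rests on the libraries where it is high.

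These counts rested on single libraries. Without WT KL replicate 2, 21 and 32 members were called in the WT HSC and Evi1 HSC comparisons with WT KL, and without WT KL replicate 3, 26 and 38. Without WT HSC replicate 2, 25 were called in WT HSC against WT KL. All 44 and all 58 called members kept their direction in each of the 15 alternatives run, except that Cox4i2 was not tested under the filter of 5 TPM. Over the 9 libraries as labelled, limma called 0 of 83 in each comparison, with medians of -0.21 for WT HSC against WT KL and -0.49 for Evi1 HSC against WT KL. The counts at an unadjusted p under 0.05 were 0 and 17, the smallest adjusted p were 0.96 and 0.31, and 0.00514 and 0.0103% of all genes were called.

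The number of genes at 1 TPM or more split the libraries as Mecom did, with 18258 to 18806 in the 5 libraries of the HSC groups that express it and in the one labelled WT KL replicate 1, and 15422 to 15819 in WT KL replicates 2 and 3 and in the one labelled WT HSC replicate 3. Quantile normalization, which gives every library the same distribution of values, moved the median of all genes from 0.26 to -0.10 in WT HSC against WT KL and from 0.28 to -0.08 in Evi1 HSC against WT KL. Calls over all genes then split into 2999 higher and 3155 lower in place of 5203 and 2104, and into 3663 and 4014 in place of 6087 and 2776. Members were still mostly lower under it, with 1 higher and 29 lower (median -0.50) and with 3 higher and 44 lower (median -0.66). Relative to the median of all genes, the members' medians were thus below it under both scalings.

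**Figure D3:**
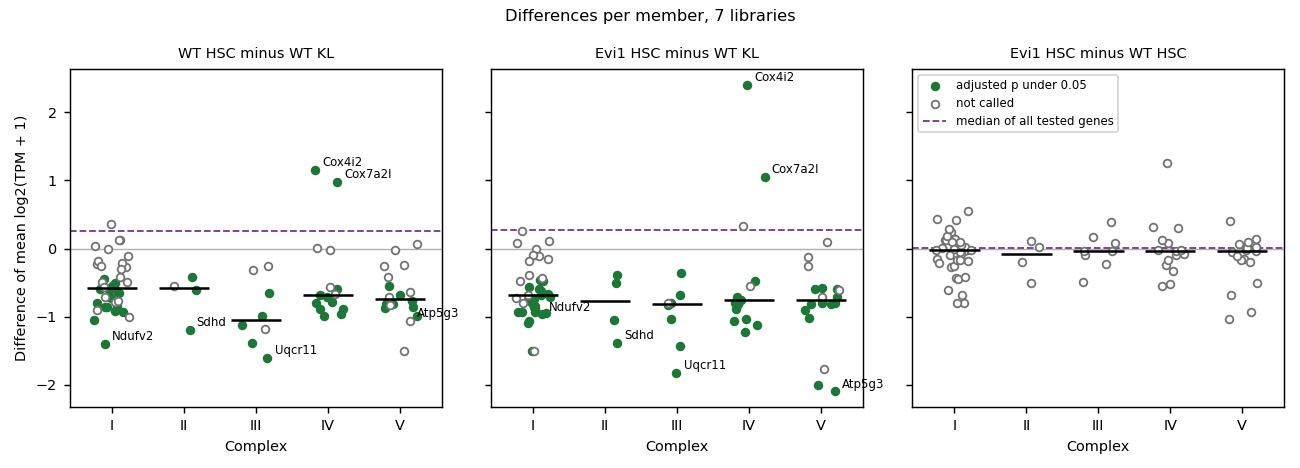
Differences of mean log2(TPM + 1) over 7 libraries (y axis) for each member by complex (x axis), in 3 panels for WT HSC minus WT KL, Evi1 HSC minus WT KL and Evi1 HSC minus WT HSC. Filled points have an adjusted p under 0.05, black bars are the medians of a complex, and the dashed line is the median of all genes tested. In the first 2 panels every complex median is below 0, from -0.57 to -1.05 and from -0.68 to -0.82, and in the third no point is filled.

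Other cell types moved with the gates. WT KL replicates 2 and 3 held 2065 and 608 TPM of 8 granulocyte markers, against 25.1 to 39.6 TPM in the 5 HSC libraries, and Ctsg, S100a8 and S100a9 were listed at 0 in all 5. Of the 7 granulocyte markers tested, 6 were lower in each HSC group. Of all genes, 10.8% were called lower in WT HSC and 14.3% in Evi1 HSC. However, Elane, Ms4a3, Ctsg, S100a8 and S100a9 stayed under 1 TPM in the 5 HSC libraries and in WT KL replicate 1. They passed the filter only through the libraries where they are high, so a lower HSC value was built into their calls. The erythroid regulators Gata1 and Klf1 lay at 107 to 118 and 147 to 151 TPM in those WT KL libraries, at 17.3 to 18.2 and 21.1 to 23.1 TPM in replicates 1 and 2 of WT HSC, and at 2.79 to 4.20 and 0.110 to 2.51 TPM in replicates 1 to 3 of Evi1 HSC. Summed over 11 erythroid markers, globins included, the ranges overlapped, with 1118 to 3199 TPM in replicates 1 to 3 of Evi1 HSC, 1022 and 1373 TPM in WT HSC and 1357 and 1262 TPM in WT KL. In WT HSC against WT KL 5 of these 11 were lower and 1 higher, and in Evi1 HSC against WT KL 5 and 2. Macrophage markers summed to at most 3.58 TPM and hepatocyte markers to at most 7.89 TPM in these 7 libraries, and none passed the filter. The part of granulocytic and erythroid cells in the members' differences was not tested.

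Promoter windows from RefSeq (build GRCm38.p6, 250 bases before to 50 after each gene start) were found for 66 of the 82 member symbols, 71 windows in all. A match to NRF1, searched on both strands as GCGCA and GCGC with any single base between them, stood in 18 of 71 windows (25.4%), beside 4.6% of 32851 windows of the same length over all genes. A match to CCGGAAGT, the core bound by ETS factors such as GABPA, stood in 5 windows (7.04%, beside 3.89%), and one to the YY1 motif (AAGATG followed directly by GCGG) in 5 (7.04%, beside 0.852%). No window held overlapping matches of 2 of these motifs. Of the 30 windows of members that were lower in WT HSC than in WT KL, 9 (30%) held the NRF1 motif, 2 the ETS motif and 1 the YY1 motif. The 250 bases before the start are shown for 3 members: Ndufs5 (chr4:123718187-123718436, minus strand) for its NRF1 match 98 bases before the start, Uqcr11 (chr10:80406822-80407071, minus strand) for its ETS match 66 bases before the start, and Cox7a2l (chr17:83514334-83514583, minus strand) because it was higher in the HSC gates and its window holds none of the 3 motifs. Capitals mark the match. By the GENCODE vM21 annotation, 16, 9 and 0 of the 250 bases are exonic. The start used is that of RefSeq, and the GENCODE gene of Cox7a2l begins farther upstream, so the stretch shown for it lies within that gene, outside its exons.
Ndufs5: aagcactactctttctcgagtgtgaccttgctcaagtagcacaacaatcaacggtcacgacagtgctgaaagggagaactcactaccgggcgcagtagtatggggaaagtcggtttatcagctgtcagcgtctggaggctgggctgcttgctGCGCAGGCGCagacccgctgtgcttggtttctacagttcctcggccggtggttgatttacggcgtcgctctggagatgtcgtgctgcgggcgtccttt
Uqcr11: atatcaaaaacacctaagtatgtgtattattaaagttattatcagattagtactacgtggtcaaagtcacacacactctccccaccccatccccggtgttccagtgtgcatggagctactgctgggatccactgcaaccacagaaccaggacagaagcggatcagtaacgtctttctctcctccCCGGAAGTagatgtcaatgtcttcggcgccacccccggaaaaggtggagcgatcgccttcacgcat
Cox7a2l: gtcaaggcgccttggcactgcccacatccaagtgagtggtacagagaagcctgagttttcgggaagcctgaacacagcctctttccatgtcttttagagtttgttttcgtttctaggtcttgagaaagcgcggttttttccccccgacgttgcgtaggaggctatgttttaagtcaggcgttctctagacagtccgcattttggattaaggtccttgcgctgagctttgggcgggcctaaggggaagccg
Ndufs5, an accessory subunit of complex I chosen for its promoter after its values were seen, was lower in WT HSC than in WT KL by a log2 difference of -0.85 (SE 0.25, adjusted p = 0.034). A match is a description of the letters and shows neither binding nor a cause.

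Complex I takes electrons from NADH through flavin and iron-sulfur subunits at its tip. In WT HSC against WT KL, 17 of its 38 members were lower, 0 higher and 21 not called, with a median of -0.58, and in Evi1 HSC against WT KL 22 were lower and 16 not called, with a median of -0.68. The largest fall in the first comparison was that of Ndufv2, an iron-sulfur subunit beside the flavin site. Ndufv2 was at 27.3 and 21.3 TPM in replicates 1 and 2 of WT HSC and at 59.9 and 70.5 TPM in WT KL replicates 2 and 3, a log2 difference of -1.39 (SE 0.24, adjusted p = 0.0052). Evi1 HSC held 42.4, 31.9 and 26.1 TPM, also below both WT KL libraries (-0.96, SE 0.22, adjusted p = 0.012), although that call was lost without WT KL replicate 3 (adjusted p = 0.084). The libraries labelled WT HSC replicate 3 and WT KL replicate 1 held 58.2 and 39.4 TPM.

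Among called members of complex I, the largest fall in Evi1 HSC was that of Ndufs6, an accessory subunit needed to complete the NADH-binding arm. Ndufs6 read 23.1, 19.7 and 9.72 TPM in replicates 1 to 3 of Evi1 HSC against 50.5 and 46.7 TPM in WT KL replicates 2 and 3 (-1.502, SE 0.34, adjusted p = 0.011). WT HSC replicates 1 and 2, at 28.8 and 22.8 TPM, overlapped with Evi1 HSC, and their difference from WT KL was not called (-0.90, SE 0.37, adjusted p = 0.099). The Evi1 HSC call was lost without either WT KL library (adjusted p up to 0.067). Its exons share 30 bases with those of Mrpl36, and a processed copy, Ndufs6b, is itself a member at 3.14 to 10.7 TPM, so reads may be split between them.

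Of the 7 catalytic core genes of complex I, 3 were called lower in WT HSC than in WT KL and 4 in Evi1 HSC. The differences of all 7 were negative in Evi1 HSC against WT KL, and those of 6 in WT HSC against WT KL. Among them, and chosen after their values were seen, Ndufv1, the NADH-binding flavoprotein, was lower in both (-0.84, SE 0.14, adjusted p = 0.00455 and -0.84, SE 0.13, adjusted p = 0.00219). Ndufs1, the largest iron-sulfur subunit, was lower in WT HSC (-0.73, SE 0.23, adjusted p = 0.042) and was not called in Evi1 HSC (-0.18, SE 0.21, adjusted p = 0.52). It was the single member called in the first comparison and not in the second. The difference between the HSC groups themselves was 0.56 (SE 0.21, adjusted p = 0.53).

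Other complex I members showed little or no difference. Ndufa6, Ndufa7, Ndufb2 and Ndufb11, accessory subunits chosen after their values were seen, had log2 differences between -0.19 and 0.25 in both comparisons with WT KL. Ndufb11 was at 43.9 to 51.3 TPM in the 5 HSC libraries and at 46.9 and 35.4 TPM in WT KL replicates 2 and 3, overlapping ranges.

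Of the 4 members of complex II, 3 were lower in WT HSC and 4 in Evi1 HSC than in WT KL, with medians of -0.57 and -0.78. Sdha and Sdhb form the catalytic flavoprotein and iron-sulfur arm, and Sdhc and Sdhd anchor it in the membrane. Sdhd was at 70.0, 76.6 and 69.7 TPM in replicates 1 to 3 of Evi1 HSC, at 81.9 and 83.1 TPM in replicates 1 and 2 of WT HSC, and at 190 and 188 TPM in WT KL replicates 2 and 3. The HSC libraries lay well below the WT KL libraries, and the libraries labelled WT HSC replicate 3 and WT KL replicate 1 were at 185 and 79.9 TPM. The log2 difference was -1.19 (SE 0.11, adjusted p = 0.00038) for WT HSC and -1.38 (SE 0.10, adjusted p = 9.3e-05) for Evi1 HSC, and both calls held in each of the 15 alternatives. Sdhd lies on chromosome 9 at 50596357 to 50603812 (mm10, minus strand).

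Sdha was at 123, 133 and 126 TPM in replicates 1 to 3 of Evi1 HSC, 120 and 128 TPM in replicates 1 and 2 of WT HSC, and 170 and 164 TPM in WT KL replicates 2 and 3. Its differences were smaller, -0.42 (SE 0.10, adjusted p = 0.018) for WT HSC and -0.39 (SE 0.09, adjusted p = 0.013) for Evi1 HSC. Under quantile normalization they were -0.10 with adjusted p of 0.53 and 0.45, and the calls were lost in 5 and 4 of the 15 alternatives in all, among them those without WT KL replicate 2 (adjusted p = 0.082 and 0.073) and without WT KL replicate 3. Sdhc, at 8.03 to 9.51 TPM in the 5 HSC libraries and 14.2 and 12.01 TPM in WT KL replicates 2 and 3, was lower in WT HSC (-0.61, SE 0.17, adjusted p = 0.027) and in Evi1 HSC (-0.50, SE 0.15, adjusted p = 0.033). These calls were lost in 6 and 5 of the 15 alternatives. Sdhb varied more, with 36.7, 62.7 and 32.4 TPM in replicates 1 to 3 of Evi1 HSC, 53.4 and 68.1 TPM in WT HSC and 88.4 and 88.3 TPM in WT KL. It was called in Evi1 HSC (-1.05, SE 0.28, adjusted p = 0.020), a call lost in 5 alternatives, and not in WT HSC (-0.54, SE 0.30, adjusted p = 0.20).

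Complex III moves electrons from reduced coenzyme Q to cytochrome c. Of its 8 members 5 were lower in WT HSC and 7 in Evi1 HSC than in WT KL, none was higher, and the medians were -1.05 and -0.82. Uqcr11, a small accessory subunit, had the largest fall of all called members in WT HSC. It was at 77.1 and 60.5 TPM in replicates 1 and 2 of WT HSC and at 53.5, 66.6 and 55.8 TPM in replicates 1 to 3 of Evi1 HSC. WT KL replicates 2 and 3 read 213 and 205 TPM. Of the 2 libraries against their labels, WT HSC replicate 3 read 219 TPM and WT KL replicate 1 read 78.1 TPM, each within or next to the range of the other gate. The log2 differences from WT KL were -1.60 (SE 0.16, adjusted p = 0.00067) in WT HSC and -1.82 (SE 0.15, adjusted p = 0.00017) in Evi1 HSC, and they were called in each of the 15 alternatives. Uqcr11 lies on chromosome 10 at 80402997 to 80406830 (mm10, minus strand), downstream of the promoter stretch printed above.

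Uqcrh, the hinge protein and the most abundant member of complex III, differed far less. It was at 146, 146 and 145 TPM in replicates 1 to 3 of Evi1 HSC, 160 and 152 TPM in replicates 1 and 2 of WT HSC, and 203 and 171 TPM in WT KL replicates 2 and 3. The difference was -0.25 (SE 0.11, adjusted p = 0.12) for WT HSC and -0.35 (SE 0.10, adjusted p = 0.030) for Evi1 HSC, the latter lost in 6 alternatives. The Rieske iron-sulfur protein Uqcrfs1, chosen after its values were seen, ran from 40.1 to 47.2 TPM in the 5 HSC libraries and was at 97.0 and 89.1 TPM in WT KL replicates 2 and 3. It was lower in both HSC groups (-1.12 and -1.03, adjusted p = 0.0011 and 0.00066).

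Complex IV holds the members that went both ways. In WT HSC against WT KL 9 of its 15 members were lower, 2 higher and 4 not called, with a median of -0.69, and in Evi1 HSC against WT KL 11 were lower and 2 higher, with a median of -0.76. Cox4i1, a nuclear-encoded subunit, was the most abundant member of this complex. It was at 203, 187 and 179 TPM in replicates 1 to 3 of Evi1 HSC, 210 and 191 TPM in WT HSC and 336 and 323 TPM in WT KL replicates 2 and 3. Its differences were -0.72 (SE 0.11, adjusted p = 0.0028) and -0.80 (SE 0.10, adjusted p = 0.00086). Cox6c, with the largest fall of complex IV in WT HSC, was at 88.5 and 76.1 TPM there against 163 and 165 TPM (-0.99, SE 0.13, adjusted p = 0.00175), and Evi1 HSC, at 81.9, 85.1 and 72.6 TPM, was similar (-1.03, SE 0.12, adjusted p = 0.00068). Cox6c has a processed copy among the members, Cox6c2, at 25.04 to 49.5 TPM, and shares 250 exonic bases with Vps13b.

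Cox6a1, Cox6b1, Cox7a2, Cox7b and Cox8a, the widely expressed forms of small subunits, were lower in both HSC groups, with differences between -0.59 and -1.06. The Cox8a calls were lost in 4 alternatives for WT HSC and 3 for Evi1 HSC, and in WT HSC the Cox7b call was lost in 3 and those of Cox6b1 and Cox7a2 in 1 each. Their tissue-limited relatives gave little signal. Cox6a2, Cox7b2, Cox8b and Cox8c stayed under the filter in every library, and Cox7b2 and Cox8c were listed at 0 throughout. Cox7a1, the muscle form, was just inside the filter, reaching 1 TPM in 4 libraries and 2.83 TPM at most. Just outside it, Ndufa11b reached 1 TPM in 2 libraries. Cox6b2, the testis-enriched form, was at 8.59 to 23.5 TPM with overlapping groups and was not called (adjusted p = 0.97 for WT HSC and 0.25 for Evi1 HSC). Cox5a, the partner of Cox4 in assembly, had the largest fall of this complex in Evi1 HSC, from 134 and 118 TPM in WT KL to 30.8, 79.6 and 60.6 TPM (-1.23, SE 0.36, adjusted p = 0.030), and that call was lost in 6 alternatives. Ndufa4, which is named for complex I and now assigned to complex IV, is the most abundant of the Nduf genes. It was at 262 to 331 TPM in the 5 HSC libraries and at 453 and 369 TPM in WT KL replicates 2 and 3 (-0.59, SE 0.14, adjusted p = 0.018 for WT HSC and -0.46, SE 0.13, adjusted p = 0.026 for Evi1 HSC), with the calls lost in 3 and 5 alternatives. Its hypoxia-responsive relative Ndufa4l2 stayed below 1 TPM in all 9 libraries.

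Cox7a2l, also called Scaf1, is a Cox7a-related protein studied for a role in supercomplexes of complexes III and IV. Gene-level TPM do not show which form of the protein this strain makes, and supercomplexes were not measured. It was higher in the HSC gates, at 137, 120 and 178 TPM in replicates 1 to 3 of Evi1 HSC and 138 and 134 TPM in replicates 1 and 2 of WT HSC, against 68.0 and 69.1 TPM in WT KL replicates 2 and 3. The library labelled WT HSC replicate 3 read 65.2 TPM and that labelled WT KL replicate 1 read 135 TPM. The groups did not overlap once those 2 libraries were set aside. The log2 difference was 0.98 (SE 0.18, adjusted p = 0.0066) for WT HSC and 1.05 (SE 0.17, adjusted p = 0.0026) for Evi1 HSC, called in each of the 15 alternatives. Per Cox7a2, which moved the other way, Cox7a2l was at 1.44 to 2.14 in the 6 libraries with Mecom expression and at 0.418 to 0.532 in the other 3, on the TPM scale. Cox7a2l lies on chromosome 17 at 83501918 to 83517330 (mm10, minus strand) and shares no exonic base with another gene.

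Cox4i2, the alternative Cox4 subunit known for its induction in low oxygen, was expressed at a low level. It was at 2.88, 6.68 and 7.02 TPM in replicates 1 to 3 of Evi1 HSC, 1.49 and 1.74 TPM in replicates 1 and 2 of WT HSC, and 0.113 and 0.235 TPM in WT KL replicates 2 and 3. The 2 libraries against their labels read 0.678 TPM (WT HSC replicate 3) and 4.08 TPM (WT KL replicate 1). Cox4i2 passed the level of 1 TPM through the libraries where it is high, so a difference was built into its membership. Evi1 HSC exceeded WT KL by 2.40 (SE 0.34, adjusted p = 0.0015), a call held in each of the 14 alternatives in which Cox4i2 was tested. WT HSC exceeded WT KL by 1.15 (SE 0.37, adjusted p = 0.047), and that call was lost in 8 of the 14, with values from 0.33 to 2.68 and an adjusted p up to 0.56. Of the summed Cox4i1 and Cox4i2 TPM, Cox4i2 made up 1.403 to 3.77% in Evi1 HSC, 0.705 and 0.901% in WT HSC and 0.0336 and 0.0728% in WT KL.

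**Figure D4:**
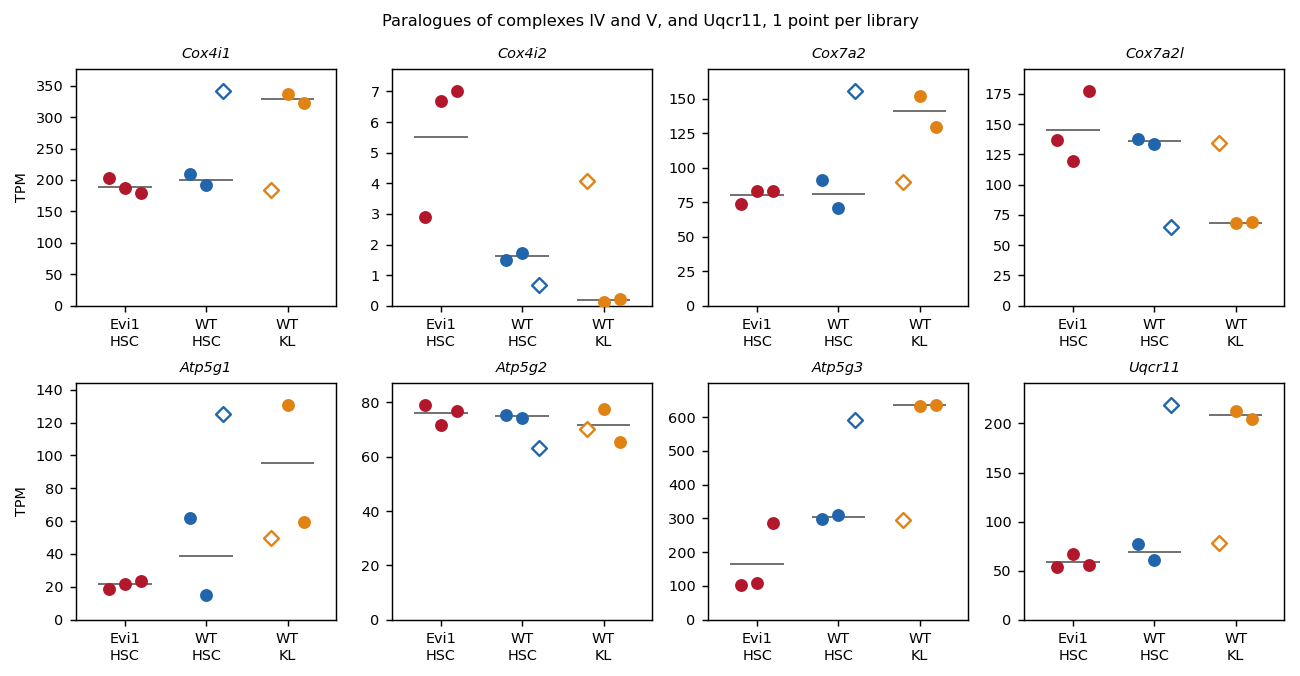
TPM (y axes, from 0, each on its own scale) of Cox4i1, Cox4i2, Cox7a2, Cox7a2l, Atp5g1, Atp5g2, Atp5g3 and Uqcr11 in the 3 groups, 1 point per library. Open diamonds are the libraries labelled WT HSC replicate 3 and WT KL replicate 1, and bars are means of the filled points. Cox7a2l is at 120 to 178 TPM in the filled HSC points and at 68.0 and 69.1 TPM in the filled WT KL points, while Cox7a2 and Uqcr11 run the other way and Atp5g2 is level.

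Complex V, the ATP synthase, has a catalytic F1 head, a rotating ring of c subunits and a peripheral stalk. In WT HSC against WT KL 8 of 18 members were lower and none higher (median -0.74), and in Evi1 HSC against WT KL 12 were lower and none higher (median -0.75). Atp5b, the catalytic beta subunit and the most abundant member of the complex, was at 402, 409 and 374 TPM in replicates 1 to 3 of Evi1 HSC, 424 and 391 TPM in replicates 1 and 2 of WT HSC and 716 and 671 TPM in WT KL replicates 2 and 3. The differences were -0.77 (SE 0.10, adjusted p = 0.0014) and -0.81 (SE 0.09, adjusted p = 0.00051), called in each of the 15 alternatives. Atp5a1, the alpha subunit, chosen after its values were seen, was lower in both too (-0.55 and -0.59, adjusted p = 0.00425 and 0.00154). Atp5d, in the central stalk of F1, had the largest fall among called members of the complex in WT HSC, at 38.7 and 27.6 TPM against 62.5 and 69.1 TPM (-0.99, SE 0.20, adjusted p = 0.0086). That call was lost in 2 alternatives, with the replicate block and without WT KL replicate 3 (adjusted p up to 0.056). Evi1 HSC was at 37.9, 47.9 and 45.1 TPM (-0.59, SE 0.18, adjusted p = 0.034), a call lost in 7 alternatives. Both gene models of Atp5o, a subunit of the peripheral stalk, were lower in both HSC groups, but they overlap in their exons and are not independent.

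The c subunit of the ring is made by 3 genes, Atp5g1, Atp5g2 and Atp5g3, whose mature proteins are known to be identical, and these 3 differed from each other. Atp5g3 was at 298 and 310 TPM in replicates 1 and 2 of WT HSC and at 634 and 636 TPM in WT KL replicates 2 and 3. Evi1 HSC replicates 1 and 2 were at 104 and 109 TPM and replicate 3 at 286 TPM, so the Evi1 HSC libraries differed among themselves. The difference from WT KL was -2.09 (SE 0.41, adjusted p = 0.0063) in Evi1 HSC, called in each of the 15 alternatives, and -1.06 (SE 0.45, adjusted p = 0.11) in WT HSC. Atp5g1 was scattered, at 62.2 and 14.8 TPM in WT HSC and 131 and 59.4 TPM in WT KL, and was called only in Evi1 HSC, at 19.0, 21.8 and 23.5 TPM (-1.998, SE 0.58, adjusted p = 0.028, lost in 5 alternatives). Atp5g2 was level, at 71.8 to 79.1 TPM in the 5 HSC libraries and 77.7 and 65.3 TPM in WT KL replicates 2 and 3 (0.07, SE 0.13 and 0.09, SE 0.12). Its share of the 3 genes was 39.2, 35.4 and 19.9% in Evi1 HSC, 17.3 and 18.6% in WT HSC and 9.22 and 8.59% in WT KL. The sources used here do not say how reads were split between related copies.

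The question of the third comparison, Evi1 HSC against WT HSC, was whether ectopic Evi1 expression went with a different chain in stem cells. Over 7 libraries limma called 0 of 83 members, with 6 at an unadjusted p under 0.05 and a median of -0.04, beside 0.206% of all genes called and a median of 0.00 for all genes. The standard errors of the members ran from 0.08 to 0.66 with a median of 0.16, and 59 of 83 differences lay within 0.3 of 0. The smallest adjusted p, 0.36, was that of Cox4i2, where all 3 Evi1 HSC libraries lay above both WT HSC libraries (1.25, SE 0.34). Atp5g3 had the largest negative difference (-1.03, SE 0.41, adjusted p = 0.57). Without Evi1 HSC replicate 3 it was the 1 member called, at -1.503 (SE 0.09, adjusted p = 0.018). Over the 9 libraries as labelled limma also called 0 of 83, with 4 at an unadjusted p under 0.05, a median of -0.28 against 0.11 for all genes and 0.00514% of all genes called. With 3 libraries against 2, a miss of the threshold does not show that the groups are alike. Of 11 erythroid markers, 4 were lower in Evi1 HSC than in WT HSC over 7 libraries.

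Genes of the pathway outside the members were counted by list. Of 4 oxidative phosphorylation genes that the symbol rule misses, 3 were lower in both HSC groups than in WT KL over 7 libraries. These were Cyc1, the cytochrome c1 of complex III, Cycs, which encodes cytochrome c, and Atpif1, the inhibitor of ATP synthase. Of all genes, 10.8% were called lower in WT HSC and 14.3% in Evi1 HSC. Cycs was at 7.19 to 10.2 TPM in the 5 HSC libraries and 26.3 and 21.8 TPM in WT KL replicates 2 and 3 (-1.38, SE 0.21, adjusted p = 0.0029 in WT HSC). The 13 subunits encoded in mitochondrial DNA summed to 17289 to 23861 TPM in the 5 HSC libraries and to 35256 and 33166 TPM in WT KL replicates 2 and 3. Of the 13, 4 were called lower by limma in WT HSC (mt-Nd1, mt-Nd2, mt-Nd4 and mt-Nd5) and 12 in Evi1 HSC, beside 10.8% and 14.3% of all genes. In all 13, both WT HSC libraries lay below both WT KL libraries, beside 25.2% of all genes. At an unadjusted p under 0.05 in that comparison there were 9. The ratio of WT HSC to WT KL, not tested, was 0.678 for this sum and 0.631 for the sum of the nuclear members.

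Among 49 assembly factors, 8 were lower and 2 higher in WT HSC than in WT KL, and 19 were lower and none higher in Evi1 HSC. These calls are 20.4% and 38.8% of the list, beside 37.5% and 45.5% of all genes, and the medians were -0.30 and -0.46. By direction, 10.8% and 14.3% of all genes were called lower and 26.7% and 31.3% higher. Cox17, the copper chaperone of complex IV, was at 23.8 to 39.9 TPM in the 5 HSC libraries against 118 and 98.7 TPM (-1.62, SE 0.17, adjusted p = 0.00079 in WT HSC and -2.12, SE 0.16, adjusted p = 0.00012 in Evi1 HSC). Those called higher in WT HSC were Tmem126b, a complex I assembly factor (1.005, SE 0.26, adjusted p = 0.023), and Ttc19, of complex III (0.78, SE 0.21, adjusted p = 0.027). No gene of the 4 complex II assembly factors was called. Surf1, which acts in complex IV assembly, was the single list gene called between Evi1 HSC and WT HSC, at 13.2, 13.05 and 14.5 TPM against 31.3 and 29.0 TPM (-1.10, SE 0.13, adjusted p = 0.039). That call was lost without any 1 of the 7 libraries, with the adjusted p between 0.084 and 0.19, and the libraries labelled WT HSC replicate 3 and WT KL replicate 1 read 20.5 and 14.2 TPM.

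Of 18 genes of the citric acid cycle and pyruvate dehydrogenase, which supply the chain with NADH and succinate, 7 were lower and 1 higher in each HSC group than in WT KL, with medians of -0.70 and -0.94. These calls are 44.4% of the list in each comparison. Of all genes, 37.5% and 45.5% were called, 10.8% and 14.3% lower and 26.7% and 31.3% higher. Citrate synthase, Cs, was lower by -1.10 (SE 0.10, adjusted p = 0.00044) in WT HSC, and the gene called higher was Idh2 (0.54, SE 0.14, adjusted p = 0.026). Of 11 genes of coenzyme Q synthesis 3 and 2 were lower and none higher, with medians of -0.35 and -0.55. These calls are 27.3% and 18.2% of the list, beside 10.8% and 14.3% of all genes called lower. In either direction, 37.5% and 45.5% of all genes were called. Pdss1, which makes the side chain, was at -1.52 (SE 0.21, adjusted p = 0.0022) in WT HSC. Of 14 nuclear regulators of these genes, 2 were lower and 1 higher in each comparison, with medians of -0.14 and -0.13. Those calls, in both directions, are 21.4% of the list in each comparison, beside 37.5% and 45.5% of all genes. The 2 lower calls stand beside 10.8% and 14.3% of all genes called lower. Gabpb2, a partner of the ETS factor GABPA, was lower in both (-0.52 and -0.55, adjusted p = 0.019 and 0.0086). The coactivator Ppargc1a was called higher (0.70 and 1.28), but it reached 1 TPM only in the 3 Evi1 HSC libraries and so passed the filter only through the group where it is high. It was listed at 0 in WT KL replicates 2 and 3 and at 0.493 to 1.51 TPM in the 5 HSC libraries. Over the 9 libraries as labelled, limma called 0 of the 109 genes of these lists in each comparison, with 6 at an unadjusted p under 0.05 between the HSC groups, 1 for WT HSC and 29 for Evi1 HSC against WT KL.

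Copies of some members limit what their values mean. Of the 13 rows with -ps, 11 reached 1 TPM in at least 3 libraries, among them Atp5pb-ps at 21.7 to 48.8 TPM and Cox5b-ps at 18.6 to 42.7 TPM. Like Cox6c2 and Ndufs6b, the member Ndufb4c is annotated as a processed pseudogene. Without these 3, 40 of 80 members were lower in WT HSC than in WT KL and 53 of 80 in Evi1 HSC than in WT KL, with 2 higher in each. The sources used here do not say whether counting used strand, and 29 members share exonic bases with another gene.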

How the data were processed

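Each of the 9 libraries has 1 deposited table of TPM per gene, made by the authors, per the file headers. For WT HSC replicate 2 the value column is headed C_H3, which was taken as TPM. The submitters' processing notes list HISAT2, StringTie and mm10. The sources used here give neither versions or roles nor the annotation. TPM keeps no depth, so no counting interval was given and no count test was run. TPM is a share, so genes that rise lower all others.

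In R 4.3.3, limma 3.58.1 was fitted to log2(TPM + 1): 1 mean per group, a trend of variance with expression, and Benjamini-Hochberg adjustment over the 19461 genes that reached 1 TPM in 3 or more libraries. Differences on this scale understate those of low genes. Genes were called at an adjusted p under 0.05. Fits were run over 9 libraries, and over 7 without the 2 that went against their labels. The script was tested on simulated data. Gene positions came from GENCODE vM21 (mm10) and promoters from RefSeq.

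Members and lists were chosen with earlier results of these data known. Named were the most abundant member per complex, all Sdh genes, tissue-limited paralogues with their partners, and the largest rise and fall per complex and comparison, with exceptions stated. The values of 1 member are not reported here, though counts and sums include it. Of the lists, 5 symbols were not found.

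Alternatives were other pseudocounts (0.1 and 5), no filter, a filter of 5 TPM, rescaling without mitochondrial genes, quantile normalization, a replicate block, only the 2 groups compared, and leaving out each library. Deviations from the group means, taken over the 9 libraries, were correlated between same-numbered libraries, with r from -0.64 to 0.70. These means include the 2 libraries that went against their labels, so the check cannot show whether the numbers pair the samples. The numbers were not taken as pairs.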

Additional observations from a re-analysis of the deposited data

How the results depend on the processing

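Over the 9 libraries as labelled, 0 members were called in each comparison, and leaving out the 2 libraries gave 0 between the HSC groups, 44 for WT HSC and 58 for Evi1 HSC against WT KL (the order of all counts here). Over 7 libraries, leaving out each library in turn gave 0 to 1, 21 to 47 and 32 to 57 members. The genes called from the pathway lists, 1, 31 and 47, became 0 to 0, 15 to 39 and 23 to 48. The 1 gene called in Evi1 HSC against WT HSC became 0 with a pseudocount of 5, with only the 2 groups compared and with the replicate block. Whether the replicate numbers pair the samples is not known. With the replicate block 0, 32 and 52 members were called over 7 libraries and 0 in each comparison over 9. No count or named difference of the members reversed. The ratios of summed TPM stayed within 1 SD of their value over the 9 libraries, a spread that the 2 libraries widen: without these, WT HSC over WT KL for complex III went from 0.860 to 0.539. In the WT HSC and Evi1 HSC comparisons with WT KL, 18 of the 44 and 28 of the 58 members were called in each of the 15 alternatives. Of the 40 called differences of named members, quantile normalization lost 13, and leaving out WT KL replicate 2 lost 17 and WT KL replicate 3 lost 13. The depth behind the TPM is unknown, and the WT groups of the 7-library fit hold 2 libraries each.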
